A study of Caenorhabditis elegans with 12 samples.

Results

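The sex dependence of the fasting response was measured as a difference between changes: the fasting change of each transcript in hermaphrodites (fasted minus fed), minus its fasting change in males. All 12 of the study's 12 arrays entered it, in 4 groups of 3: fasted hermaphrodites, fed hermaphrodites, fasted males and fed males. Every worm was wild-type N2, the standard laboratory strain of Caenorhabditis elegans, grown at 20 C. Males were filtered away from hermaphrodites as young adults, and every group, fed controls included, was then kept on 200 ug/ml of FUdR, an inhibitor of DNA synthesis that keeps progeny from appearing. The fasted groups spent 48 h without food from day 2 of adulthood, the fed groups ate freely, and RNA from whole bodies was collected at day 4. The labels describe 3 independent experiments, and each group has 1 sample for each replicate number. In whole worms, fewer cells of a type and less RNA per cell cannot be told apart.

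Adult hermaphrodites make oocytes and eggs and supply them with intestinal yolk, whereas the male germ line makes sperm throughout adult life. The intestine of both sexes digests bacteria with cathepsin-type proteases and secretes lectins and lysozymes that meet bacteria. When food is withdrawn, worms are known to break down fat through lipases and fatty acid oxidation, and lowered insulin-like signalling releases the transcription factor DAF-16, which raises stress-protection genes.

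All levels below are log2 array signals and all differences are in log2 units, so that 1 unit is 2-fold. Arrays of a group correlated at 0.957 to 0.975 over probe sets. Array medians were 8.28 to 8.30 in fasted males and 8.05 to 8.10 in fed males, and 7.96 to 8.13 in fasted hermaphrodites and 7.98 to 8.02 in fed hermaphrodites. The samples carried their labelled sex: the summed signal of 5 vitellogenin genes, which encode yolk proteins made by hermaphrodites, was 16.44 to 16.57 in fasted and 16.83 to 16.94 in fed hermaphrodites, against 10.28 to 11.76 in fasted and 10.72 to 11.26 in fed males. Replicate 1 stood above the others in both hermaphrodite groups, the fed array most. The summed signal of 76 sperm genes was 14.29, 13.15 and 13.06 in fasted hermaphrodites, against 15.88 in fed hermaphrodite replicate 1 and 13.38 and 13.62 in the other fed ones, and it was 19.21 to 19.64 in fasted and 19.31 to 19.70 in fed males. The median difference over the sperm genes was -0.83 with fed hermaphrodite replicate 1 and -0.07 without it. The part of that array in the other results was tested by leaving it out.

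A sex difference in the fasting change was called for 840 of 15913 probe sets (5.28%; limma, Benjamini-Hochberg adjusted p under 0.05). The difference was positive, that is, the fasting change was more positive in hermaphrodites, for 232 probe sets (1.46%), and negative for 608 (3.82%). Of the 840, 500 differed by at least 2-fold (3.14%). The fasting change itself was called for 1816 probe sets (11.4%) in hermaphrodites, where 5.72% rose and 5.69% fell, and for 4352 (27.3%) in males, where 19% rose and 8.31% fell. Counted once per gene, 5.75% of 12212 genes had a called difference, 1.56% positive and 4.18% negative. By fasting, 6.08% of genes rose and 6.02% fell in hermaphrodites, and 19.6% rose and 8.75% fell in males. The split by direction followed the scaling of the arrays. As deposited, 27.6% of the calls were positive, against 60.8% of 589 calls after median centring, 50.1% of 728 after quantile normalization and 26.2% of 431 after scaling to the hybridization controls. The median difference over all probe sets was -0.11 as deposited and 0.05 after median centring, and each value below can be read against that shift. Under the same 2 settings the median fasting change was 0.23 and 0.02 in males, and 0.09 and 0.04 in hermaphrodites. Rises and falls in the lists below were counted as deposited. All 840 kept their direction under each of these scalings, and 315 kept their call under all 3. Median centring and the hybridization controls move every difference by 1 shared amount, small beside the called differences. The kept direction therefore says little about those 2 scalings. With the replicate number as a block, 1641 probe sets were called, 462 positive and 1179 negative.

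The number of calls also depended on single arrays. It was 437 without fed hermaphrodite replicate 1, 439 without fed hermaphrodite replicate 2, 428 and 455 without fasted hermaphrodite replicates 2 and 3, 468 without fasted male replicate 2, and 448 and 497 without fed male replicates 1 and 2. Without any one of the remaining 5 arrays it lay between 602 and 899. The direction of all 840 was the same without each of the 12 arrays, though the 840 had been selected on these same arrays.

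**Figure D1:**
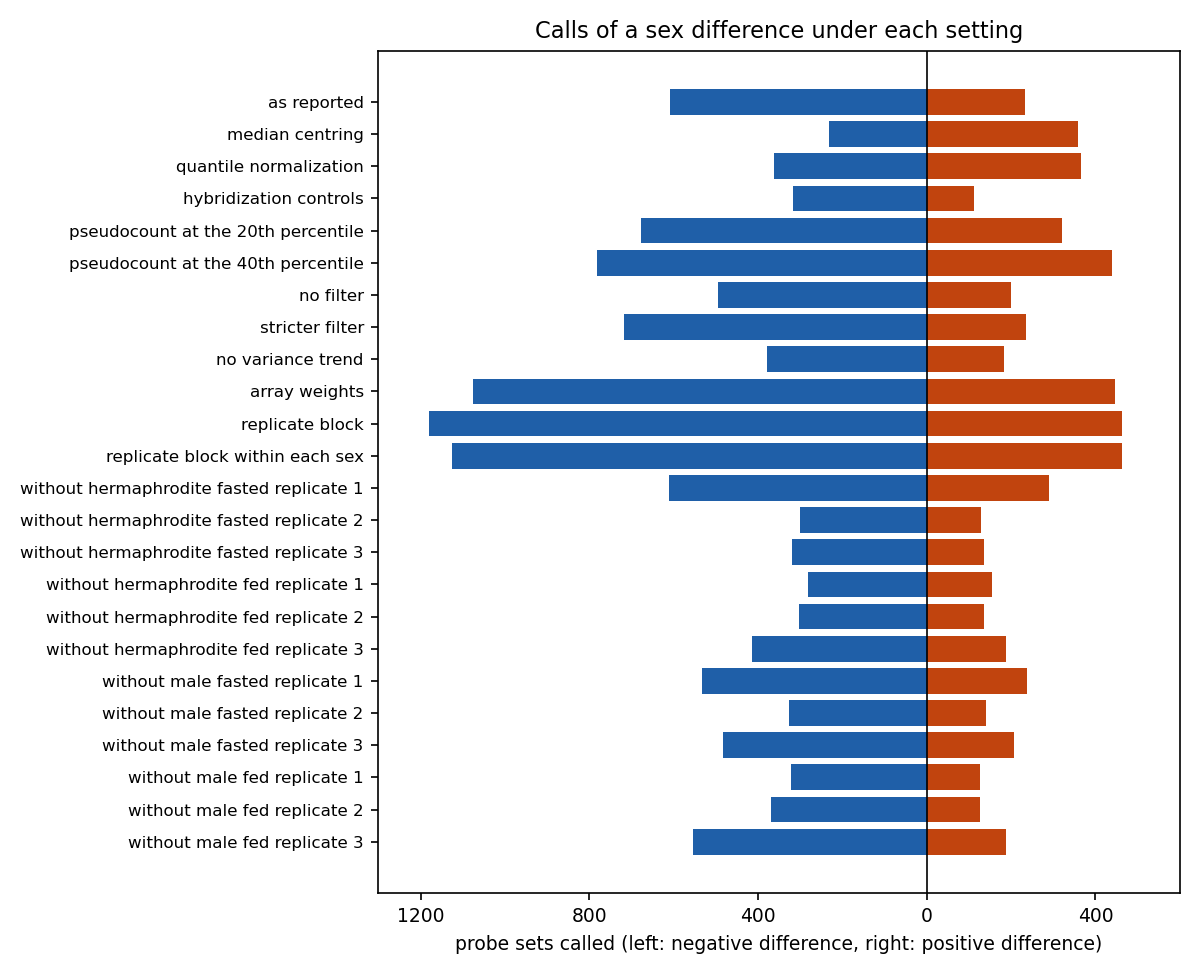
Number of probe sets with a called sex difference in the fasting change (horizontal axis) under each setting (rows). Bars to the left count negative differences and bars to the right positive ones. As reported there were 608 negative and 232 positive calls, and median centring gave 231 and 358.

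The largest class of the 840 was a rise called in males with no change called in hermaphrodites, with 462 probe sets. Their median difference was -0.95, made of a median change of -0.12 in hermaphrodites and 0.84 in males. A fall called only in males followed with 118 probe sets, whose median changes were 0.18 in hermaphrodites and -1.36 in males. A fall called only in hermaphrodites was found for 68 probe sets, with medians of -1.68 in hermaphrodites and 0.18 in males, and a rise called only in hermaphrodites for 57, with medians of 1.07 and -0.18. Both sexes fell by unequal amounts at 67 probe sets, 34 of them further in males and 33 further in hermaphrodites. Both rose unequally at 17, the 2 sexes moved in opposite directions at 32, and at 19 neither change was called by itself. The size of the male-only class moved with the settings. After median centring 145 probe sets fell in it, with the replicate block 882, and 189 of the 462 kept their call without fed hermaphrodite replicate 1. In fed worms the 462 were already unequal between the sexes, with a median level 1.96 units higher in hermaphrodites, against -0.13 over all probe sets. The fed arrays enter both values, so no test was made of that.

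**Figure D2:**
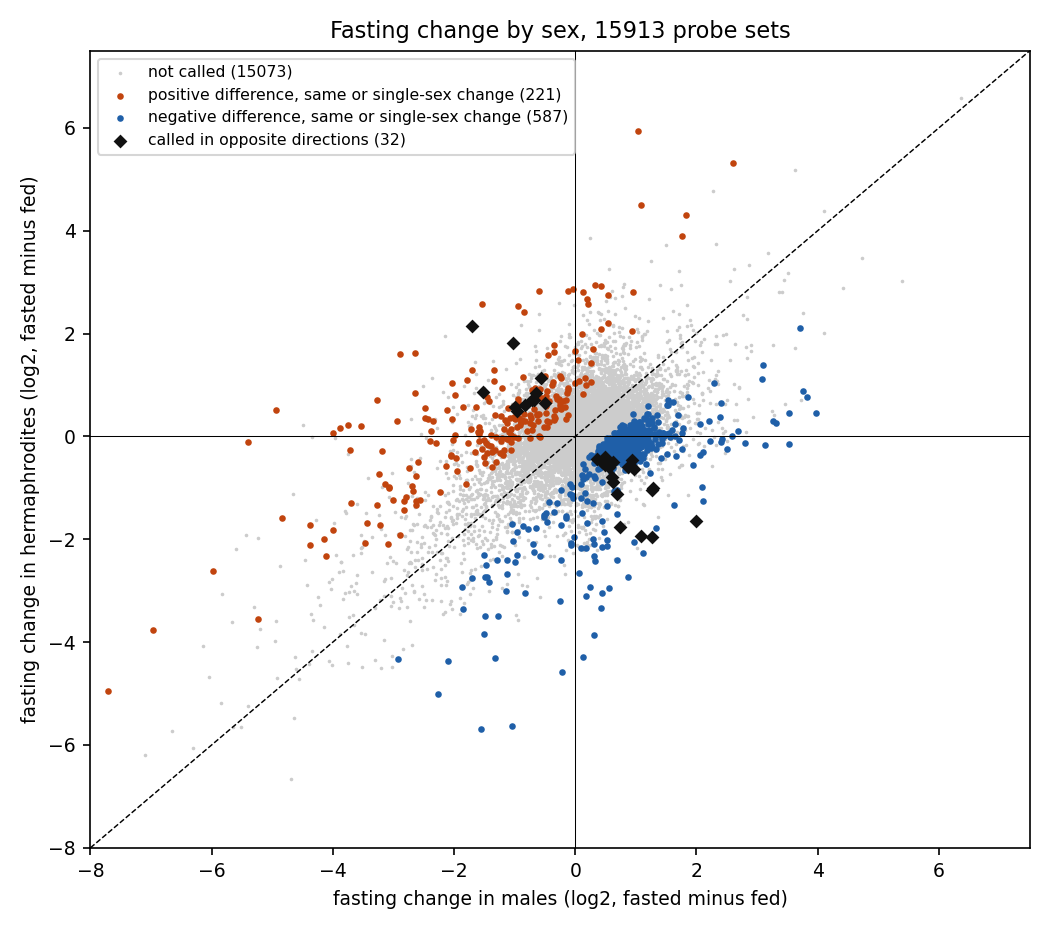
Fasting change in males (horizontal axis) and in hermaphrodites (vertical axis), both log2 of fasted minus fed, for each of 15913 probe sets. Grey points were not called, orange and blue points had a positive or negative called sex difference, and black diamonds are the 32 called in opposite directions. Points on the dashed line changed equally, and the dense blue cloud right of the centre holds the male-only rises.

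Digestive proteases included some of the clearest differences. Among 19 measured genes of the cathepsin B-like (cpr) and aspartic (asp) proteases, 5 had a negative and 2 a positive called difference, or 36.8% against 5.75% of all 12212 genes. The list's median was -0.19, against -0.12 over all genes. Fasting lowered 13 of the 19 in hermaphrodites and 11 in males, against 6.02% and 8.75% of all genes. cpr-4, a secreted cathepsin B-like protease, measured 10.75, 10.78 and 9.30 in fasted hermaphrodites against 13.25, 13.21 and 13.48 in fed ones, and 14.63, 15.06 and 14.60 in fasted males against 14.25, 14.54 and 14.18 in fed males. The hermaphrodite groups did not overlap, and every male array, fasted or fed, lay above every hermaphrodite array. Its change was -3.04 ± 0.31 (SE) in hermaphrodites and 0.44 ± 0.31 in males, a difference of -3.48 ± 0.44 (limma adjusted p = 0.00194).

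asp-1, an intestinal aspartic protease, measured 12.16, 12.31 and 12.28 in fasted hermaphrodites against 14.28, 14.38 and 14.46 in fed ones, and 14.83, 15.34 and 15.25 in fasted males against 14.91, 15.24 and 15.49 in fed males. The male groups overlapped, while the hermaphrodite groups lay about 2 units apart, with a difference of -2.05 ± 0.22 (limma adjusted p = 0.000848). cpr-9 fell in both sexes, further in hermaphrodites: 10.94, 10.80 and 10.81 in fasted hermaphrodites against 13.94, 13.87 and 13.76 in fed ones, and 12.70, 12.73 and 12.56 in fasted males against 13.89, 13.93 and 13.62 in fed males. The fed groups of the 2 sexes overlapped and the fasted groups did not, with a difference of -1.86 ± 0.15 (limma adjusted p = 0.000119). cpr-1 fell by 2.68 in hermaphrodites and by 1.12 in males, a difference of -1.56 (limma adjusted p = 0.0236) that missed the threshold without fasted hermaphrodite replicate 3, fed hermaphrodite replicate 2 or fed male replicate 1 (0.0572, 0.0518 and 0.0562).

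cpr-5 moved in opposite directions, at 5.65, 6.16 and 5.63 in fasted hermaphrodites against 8.08, 7.56 and 7.65 in fed ones, and 7.53, 8.72 and 9.11 in fasted males against 7.58, 6.74 and 7.23 in fed males. One fasted male array lay within the fed range, and the difference was -3.22 ± 0.51 (limma adjusted p = 0.00618). Its probe set matches several transcripts, so related cathepsin copies may contribute. The aspartic proteases asp-13 and asp-14 differed the other way. asp-14 fell by 1.81 in hermaphrodites and by 4.00 in males, with a difference of 2.19 (limma adjusted p = 0.0215) that missed the threshold without fasted hermaphrodite replicate 2, fasted male replicate 2 or fed male replicate 1 (0.0526, 0.0545 and 0.0503). asp-13 differed by 1.77 (limma adjusted p = 0.0467) and kept its call, of the 12 arrays, only without fasted hermaphrodite replicate 3 or fasted male replicate 1 (otherwise 0.0647 to 0.103). Both were measured by probe sets that match several transcripts. Without fed male replicate 1, 4 of the 19 proteases were called, and without any other single array 5 to 9 did.

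**Figure D3:**
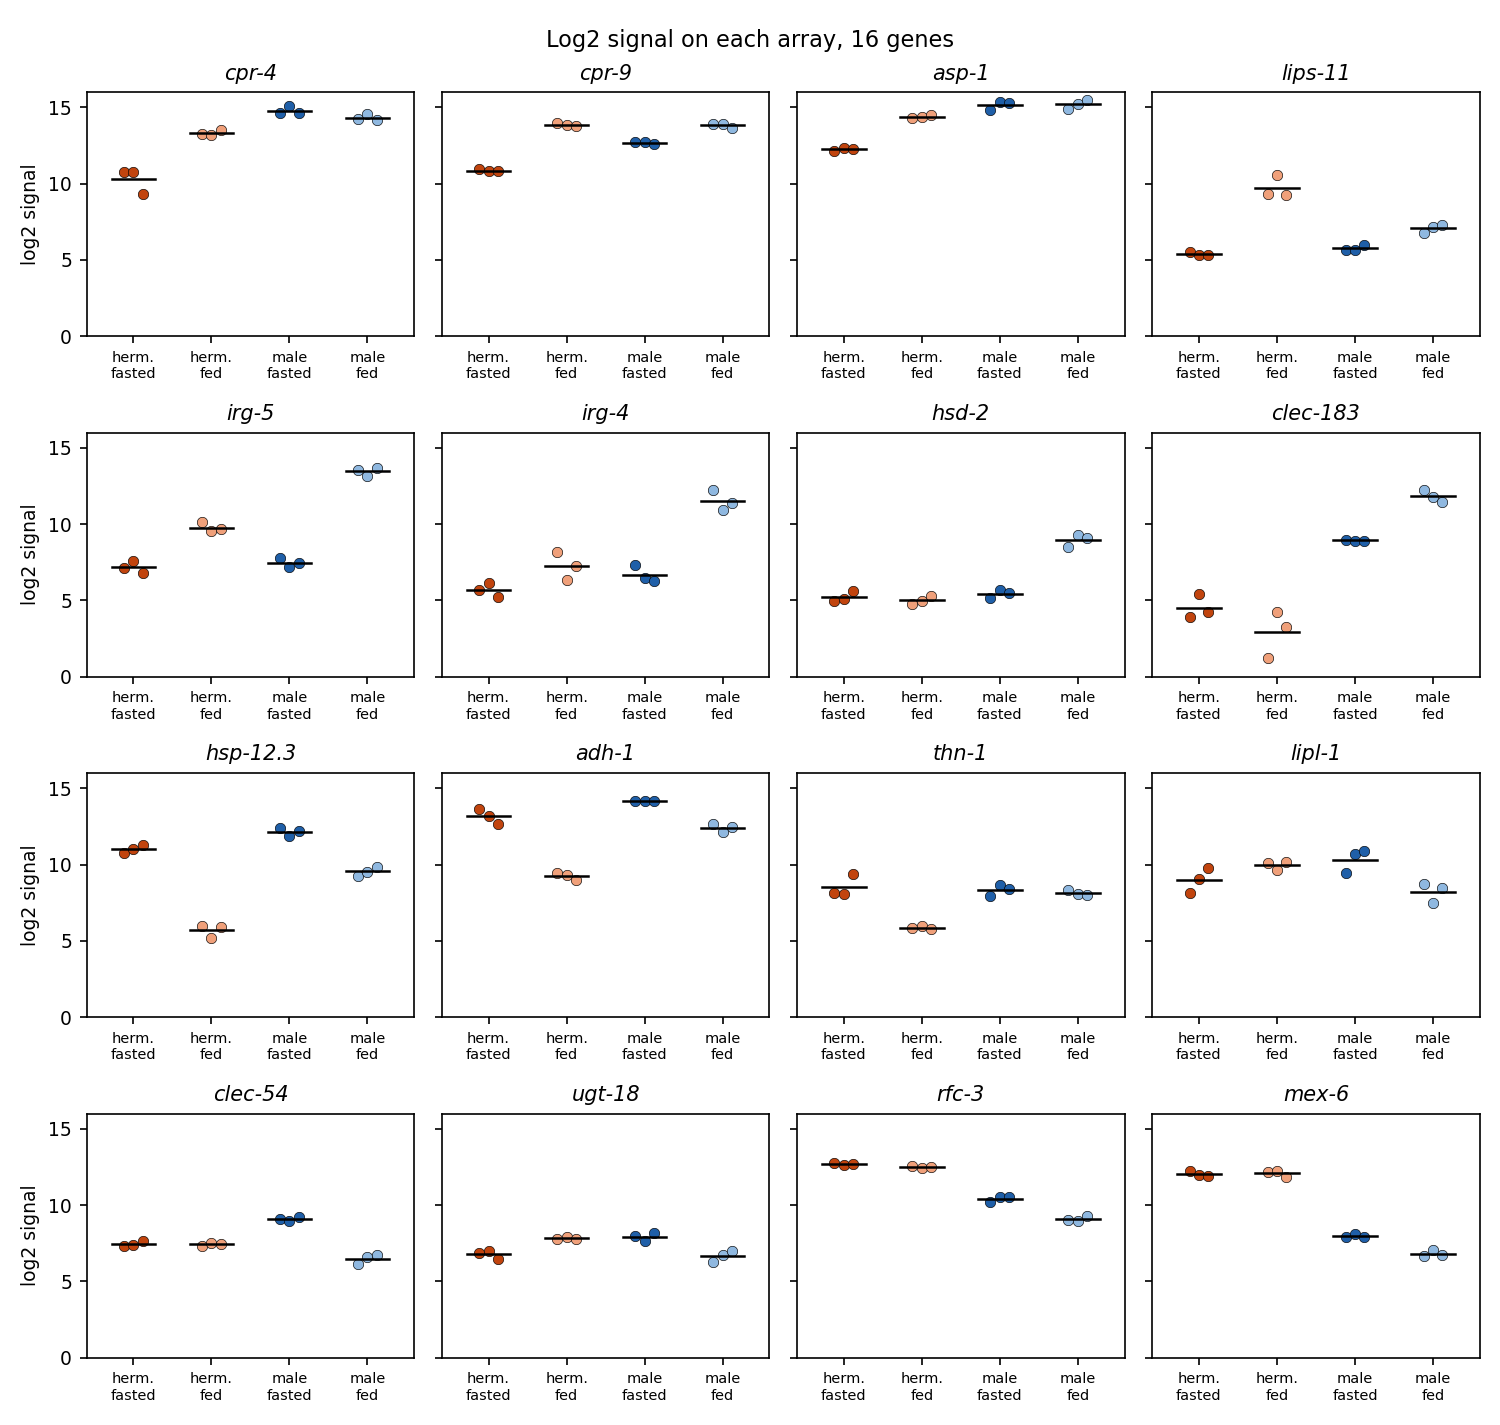
Log2 signal (vertical axis) of 16 genes on each of the 12 arrays, with fasted hermaphrodites, fed hermaphrodites, fasted males and fed males from left to right. Points are single arrays and bars are means of 3. cpr-4 and asp-1 drop in fasted hermaphrodites alone, and irg-5 and irg-4 are highest in fed males. rfc-3 and mex-6 have a change called in males and none called in hermaphrodites.

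Several genes tied to defence fell further in males. irg-5, an infection response gene with a CUB-like domain, measured 7.10, 7.61 and 6.78 in fasted hermaphrodites against 10.11, 9.53 and 9.68 in fed ones, and 7.77, 7.21 and 7.42 in fasted males against 13.53, 13.15 and 13.67 in fed males. The fasted groups of both sexes shared a range, while fed males stood above fed hermaphrodites by over 3 units. It fell by 2.61 ± 0.23 in hermaphrodites and by 5.98 ± 0.23 in males, a difference of 3.37 ± 0.33 (limma adjusted p = 0.000644). irg-4, of the same family, measured 5.66, 6.13 and 5.22 in fasted hermaphrodites against 8.15, 6.37 and 7.25 in fed ones, and 7.34, 6.46 and 6.26 in fasted males against 12.24, 10.93 and 11.41 in fed males. The hermaphrodite groups nearly touched and the male groups lay far apart, with a difference of 3.25 ± 0.65 (limma adjusted p = 0.0155).

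The C-type lectins, secreted proteins of which some bind bacteria, went both ways. Of 137 measured genes, 7 had a positive and 6 a negative difference, or 9.49% against 5.75% of all genes. The list's median was -0.08, against -0.12 over all genes. The count was 13, and it was 8 without fasted hermaphrodite replicate 3 and 7 without fed male replicate 2. clec-60 measured 6.36, 6.49 and 5.99 in fasted hermaphrodites against 5.73, 5.94 and 6.14 in fed ones, and 8.36, 8.33 and 8.45 in fasted males against 10.09, 10.50 and 10.62 in fed males. It was low and overlapping in hermaphrodites and fell by 2.03 in males, with a difference of 2.37 ± 0.27 (limma adjusted p = 0.00117).

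clec-183 measured 3.89, 5.40 and 4.27 in fasted hermaphrodites against 1.25, 4.24 and 3.27 in fed ones, and 8.96, 8.91 and 8.92 in fasted males against 12.21, 11.80 and 11.46 in fed males. The hermaphrodite values lay under 6.01, the level a probe set had to pass on at least 3 arrays to be tested, and their change of 1.60 was not called. The difference was 4.49 ± 0.85 (limma adjusted p = 0.0129). clec-74 fell in both sexes, by 1.01 in hermaphrodites and by 3.07 in males (difference 2.06, limma adjusted p = 0.00222). clec-54 did the reverse: 7.33, 7.39 and 7.65 in fasted hermaphrodites against 7.33, 7.52 and 7.46 in fed ones, and 9.07, 8.94 and 9.25 in fasted males against 6.13, 6.62 and 6.75 in fed males. Its difference was -2.57 ± 0.27 (limma adjusted p = 0.000776), with all fasted males above and all fed males below the hermaphrodite arrays. clec-61 had a rise called in hermaphrodites and none in males: its means were 9.84 in fasted and 3.89 in fed hermaphrodites, and 6.37 in fasted and 5.34 in fed males (difference 4.91, limma adjusted p = 0.00495). Its fed means in both sexes lay under 6.01, and its probe set matches several transcripts.

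Of 12 measured lysozymes, enzymes that break bacterial walls, 1 had a positive and 1 a negative difference. That was 16.7% against 5.75% of all genes, with a list median of 0.33. lys-7 measured 13.93, 14.12 and 14.14 in fasted hermaphrodites against 14.67, 14.86 and 14.98 in fed ones, and 12.66, 12.23 and 12.56 in fasted males against 14.76, 15.16 and 15.40 in fed males. It fell in both sexes and further in males, with a difference of 1.86 ± 0.23 (limma adjusted p = 0.00173). lys-4 fell by 2.17 in hermaphrodites, where its means were 11.10 fasted and 13.27 fed, and had a change of 0.17 in males, where they were 7.98 and 7.80 (difference -2.34, limma adjusted p = 0.00288). The probe sets of lys-7 and lys-4 match several transcripts. Of 34 antimicrobial peptide and saposin-like genes, 3 had a negative and none a positive difference, or 8.82% against 5.75% of all genes. With the replicate block 4 had a negative and 1 a positive one. The caenacin cnc-6 and the saposin-like spp-18 had called changes of -3.21 and -3.04 in hermaphrodites. spp-18 missed the threshold without fasted hermaphrodite replicate 2, fed hermaphrodite replicate 2 or fed male replicate 1 (adjusted p 0.0502, 0.0515 and 0.0523). cnc-6 missed it without fasted hermaphrodite replicate 2, fed hermaphrodite replicates 2 or 3, fasted male replicates 2 or 3, or fed male replicates 1 or 2 (adjusted p 0.0529 to 0.0689). The list's count was 0 without fasted hermaphrodite replicate 2, and 1 without fed hermaphrodite replicate 2, fasted male replicates 2 or 3, or fed male replicates 1 or 2.

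Insulin-like peptides and stress genes also differed in their response. ins-7, an agonist of the insulin receptor DAF-2, measured 5.83, 6.18 and 4.84 in fasted hermaphrodites against 10.20, 9.91 and 9.86 in fed ones, and 10.33, 10.45 and 9.92 in fasted males against 12.53, 12.44 and 12 in fed males. It fell in both sexes and further in hermaphrodites, where the fasted arrays lay near the testing level (difference -2.28 ± 0.41, limma adjusted p = 0.0101). ins-35, another insulin-like peptide, differed by -3.07 (limma adjusted p = 0.00845), with means of 7.28 in fasted and 6.52 in fed hermaphrodites, and 7.38 in fasted and 3.55 in fed males. Its fed male mean lay under the testing level. Of 20 insulin-like genes measured, 1 had a positive and 2 a negative difference, or 15% against 5.75% of all genes. With the replicate block 3 and 2 did.

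hsp-12.3, a small heat shock protein, measured 10.73, 11 and 11.31 in fasted hermaphrodites against 5.98, 5.18 and 5.94 in fed ones, and 12.40, 11.86 and 12.18 in fasted males against 9.25, 9.54 and 9.86 in fed males. It rose by 5.31 ± 0.24 in hermaphrodites and by 2.60 ± 0.24 in males, a difference of 2.72 ± 0.34 (limma adjusted p = 0.00183). The fed hermaphrodites set it apart, lying more than 3 units under every other array. hsp-12.6 had no called difference (0.21, limma adjusted p = 0.948): it rose by 6.58 in hermaphrodites and by 6.36 in males. sip-1 showed the smallest adjusted p of the genes named here. It encodes a small heat shock protein, and its probe set that matches several transcripts measured 14.70, 15.02 and 14.81 in fasted hermaphrodites against 14.84, 14.92 and 15.02 in fed ones, and 14.02, 14.10 and 14.17 in fasted males against 11.84, 11.92 and 11.85 in fed males. Fasted males came close to the hermaphrodite level, and the difference was -2.31 ± 0.14 (limma adjusted p = 2.34e-05), with -2.47 ± 0.20 at a second, gene-specific probe set (0.000119). Of the 13 DAF-16 targets, 8 rose in hermaphrodites and 5 in males, against 6.08% and 19.6% of all genes. A difference was called for 3, hsp-12.3, sip-1 and sod-3, and for 6 with the replicate block, 5 positive and 1 negative. sod-3, a mitochondrial superoxide dismutase, changed by 0.93 in hermaphrodites and by -0.58 in males (difference 1.51, limma adjusted p = 0.032). It missed the threshold without fasted hermaphrodite replicates 2 or 3, fed hermaphrodite replicates 1 or 2, fasted male replicates 2 or 3, or fed male replicates 1 or 3 (0.0516 to 0.0758).

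The metabolic genes named here included stronger rises or falls in 1 sex and changes called in males alone. A difference was called for 5.26% of 38 fatty acid oxidation genes and 3.33% of 30 fatty acid synthesis and desaturation genes. None was called among 16 glycolysis genes, and 14.3% were among 21 acyl-CoA synthetases, against 5.75% of all genes. With the replicate block, positive and negative calls in these lists were, in that order, 5 and 0, 1 and 3, 2 and 2, and 2 and 3. adh-1, an alcohol dehydrogenase, measured 13.65, 13.18 and 12.66 in fasted hermaphrodites against 9.43, 9.35 and 9.02 in fed ones, and 14.14, 14.18 and 14.20 in fasted males against 12.64, 12.14 and 12.44 in fed males. It rose by 3.90 ± 0.21 in hermaphrodites and by 1.77 ± 0.21 in males, a difference of 2.13 ± 0.30 (limma adjusted p = 0.00347). lipl-1, a lysosomal lipase, measured 8.15, 9.08 and 9.74 in fasted hermaphrodites against 10.08, 9.65 and 10.17 in fed ones, and 9.45, 10.66 and 10.86 in fasted males against 8.74, 7.47 and 8.46 in fed males. It rose in males, the hermaphrodite change of -0.97 was not called and its groups overlapped, and the difference was -3.07 ± 0.63 (limma adjusted p = 0.0189). Of 11 lipolysis genes no other had a called difference (9.09%, against 5.75% of all genes). Under the replicate block 3 were called, and 2 without fasted male replicate 1. lipl-4, another lysosomal lipase, changed by 2.72 in hermaphrodites and by 0.78 in males, a difference of 1.95 (limma adjusted p = 0.0565), or 0.0253 with the replicate block and 0.0358 without fasted male replicate 1.

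acs-2, an acyl-CoA synthetase known to be strongly raised by fasting, measured 12.58, 11.23 and 9.75 in fasted hermaphrodites against 6.67, 6.37 and 6.23 in fed ones, and 13.88, 13.99 and 12.84 in fasted males against 10.90, 11.35 and 11.61 in fed males. It rose in both sexes, by 4.77 ± 0.54 in hermaphrodites and by 2.28 ± 0.54 in males, and the difference of 2.48 ± 0.76 missed the threshold (limma adjusted p = 0.0781), was 0.0455 with the replicate block and 0.0129 without fasted hermaphrodite replicate 3. A second acs-2 probe set passed, with a difference of 3.42 (limma adjusted p = 0.0289). acs-1, which acts on branched-chain fatty acids, fell by 2.75 in hermaphrodites and by 1.70 in males (difference -1.05, limma adjusted p = 0.0132). fat-7, a fatty acid desaturase, fell by 1.5 in hermaphrodites and by 2.26 in males, with no called difference (0.76, limma adjusted p = 0.177). cpt-6, of the carnitine palmitoyltransferase family, changed by 0.31 in hermaphrodites and fell by 2.94 in males (difference 3.25, limma adjusted p = 0.00167).

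hsd-2, a hydroxysteroid dehydrogenase homologue, measured 4.96, 5.12 and 5.61 in fasted hermaphrodites against 4.79, 4.95 and 5.31 in fed ones, and 5.15, 5.65 and 5.48 in fasted males against 8.50, 9.31 and 9.08 in fed males. Fed males were the only group above the testing level, with a difference of 3.75 ± 0.42 (limma adjusted p = 0.00113). lips-11, a lipase-related gene, measured 5.51, 5.32 and 5.35 in fasted hermaphrodites against 9.29, 10.56 and 9.27 in fed ones, and 5.66, 5.63 and 5.99 in fasted males against 6.80, 7.19 and 7.28 in fed males. It fell in both sexes to a level under 6.01, and further in hermaphrodites, whose fed arrays were the highest (difference -2.99 ± 0.44, limma adjusted p = 0.00445). lips-10, a relative, fell by 2.40 in males and changed by -0.08 in hermaphrodites, with a difference of 2.32 (limma adjusted p = 0.000848) and 2.16 at its second probe set. The glutathione transferase gst-24 fell by 1.44 in hermaphrodites and by 2.83 in males (difference 1.40, limma adjusted p = 0.00117). It was the only call among 37 glutathione transferases (2.7%, against 5.75% of all genes), and 5 were called with the replicate block.

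Transcripts of DNA replication differed through a rise in males. Of 41 genes measured, 8 had a negative difference and none a positive one, or 19.5% against 5.75% of all genes. The list's median was -0.42. In males 23 rose, and in hermaphrodites 2 did, against 19.6% and 6.08% of all genes. After median centring 6 of the 8 were called and the list median was -0.25, against 0.05 over all genes. rfc-3, a subunit of the clamp loader, measured 12.75, 12.61 and 12.71 in fasted hermaphrodites against 12.59, 12.44 and 12.49 in fed ones, and 10.22, 10.50 and 10.52 in fasted males against 9.05, 8.98 and 9.31 in fed males. The male groups did not overlap, and both lay under every hermaphrodite array, with a difference of -1.12 ± 0.17 (limma adjusted p = 0.005). psf-2, of the GINS complex, measured 9.22, 9.01 and 9.10 in fasted hermaphrodites against 9.41, 9.38 and 9.28 in fed ones, and 6.82, 6.48 and 7.05 in fasted males against 5.64, 5.28 and 5.41 in fed males. Here fed males lay below the testing level, and the difference was -1.59 ± 0.25 (limma adjusted p = 0.00607). The origin recognition subunit orc-5, the dUTPase dut-1, the helicase-nuclease dna-2 and the replicative helicase subunit mcm-6 differed by -1.07, -1.15, -1.12 and -0.87 (limma adjusted p 0.00619 to 0.0149). The list's count was 6 to 9 without any single array.

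Genes of oocytes and the eggshell behaved similarly in males. Of 34 measured, 10 had a negative and 1 a positive difference, or 32.4% against 5.75% of all genes, with a median of -0.63. None was called changed in hermaphrodites, and 14 rose and 2 fell in males, against 19.6% and 8.75% of all genes. Their count followed scaling and single arrays: 4 negative and 1 positive were called after median centring, where the median was -0.46, and 5 to 6 in all were called without fasted hermaphrodite replicates 2 or 3 or fed hermaphrodite replicates 1 or 2. mex-6, a zinc finger protein of the early embryo, measured 12.24, 11.99 and 11.88 in fasted hermaphrodites against 12.15, 12.24 and 11.85 in fed ones, and 7.93, 8.14 and 7.94 in fasted males against 6.64, 7.05 and 6.71 in fed males. Its hermaphrodite groups overlapped and its male groups did not, for a difference of -1.25 ± 0.22 (limma adjusted p = 0.00931) and -0.80 at a second probe set (0.0289). Its partner mex-5 and the oocyte maturation regulator oma-1 differed by -1.06 and -1.17 (limma adjusted p = 0.00443 and 0.00678). cpg-1, an eggshell proteoglycan, changed by -0.13 in hermaphrodites and rose by 0.69 in males (difference -0.82, limma adjusted p = 0.00759), but its second probe set gave -0.65 (0.169). perm-2, of the eggshell permeability barrier, was the exception. It measured 14.24, 14.64 and 14.45 in fasted hermaphrodites against 14.31, 14.34 and 14.57 in fed ones, and 9.65, 9.96 and 9.99 in fasted males against 11.29, 11.22 and 11.25 in fed males, with a difference of 1.43 ± 0.18 (limma adjusted p = 0.00204).

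Hermaphrodite markers in the male samples were read beside these rises, and their part in them was not tested. The summed signal of the 34 oocyte and eggshell genes in males was 13.98, 14.08 and 14.20 fasted, and 14, 14.08 and 14.22 fed. The vitellogenin sum was 10.28, 11.34 and 11.76 in fasted males and 10.74, 11.26 and 10.72 in fed males, and vit-2 alone changed by -0.22 in males and by -0.32 in hermaphrodites, neither called. The yolk receptor rme-2, found in oocytes, had a difference of -0.75 that was not called (limma adjusted p = 0.155). The summed signal of the 41 replication genes was 13.95, 14.09 and 14.12 in fasted males and 13.34, 13.44 and 13.47 in fed males, with no overlap, while the male groups overlapped in the oocyte and vitellogenin sums. A sum follows its brightest genes, and perm-2 fell in males. Gene by gene, the median male change was 0.42 over the oocyte and eggshell genes, 0.55 over the replication genes and -0.57 over the vitellogenins.

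Negative differences were also called in lists of the cell cycle, mitochondrial ribosomes and the proteasome, with medians of -0.33, -0.52 and -0.43. Of 38 cell cycle genes, 8 had a negative difference (21.1%) and 22 rose in males. Among them ndc-80, a kinetochore subunit, differed by -0.79 (limma adjusted p = 0.0147) and was not called after scaling to the hybridization controls (0.0707). Of 57 mitochondrial ribosomal proteins, 8 were negative (14%), 37 rose in males and none was called in hermaphrodites, and with the replicate block 20 differed. mrpl-51, one of these, differed by -1.01 (limma adjusted p = 0.0113). Of 33 proteasome subunits, 5 were negative (15.2%) and 23 rose in males. Over all genes, 4.18% had a negative difference and 19.6% rose in males. After median centring 1, 1 and 0 genes of these 3 lists were called. For the cell cycle the count was 2 without fasted hermaphrodite replicate 2, fed hermaphrodite replicate 2 or fed male replicate 1, 3 and 5 without fed hermaphrodite replicates 1 and 3, 4 without fasted hermaphrodite replicate 3 and 5 without fed male replicate 2. For mitochondrial ribosomes it was 1 to 4 without any one array except fasted hermaphrodite replicate 1 and fasted male replicates 1 and 3, which left 11, 6 and 8. For the proteasome it was 0 to 3 without any one array except fasted male replicate 1 or fed male replicate 3, which each left 4. No sex difference was called among 64 cytosolic ribosomal proteins or 32 neuronal markers, with or without the replicate block, or among 62 respiratory chain subunits, of which 2 were called with the block.

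**Figure D4:**
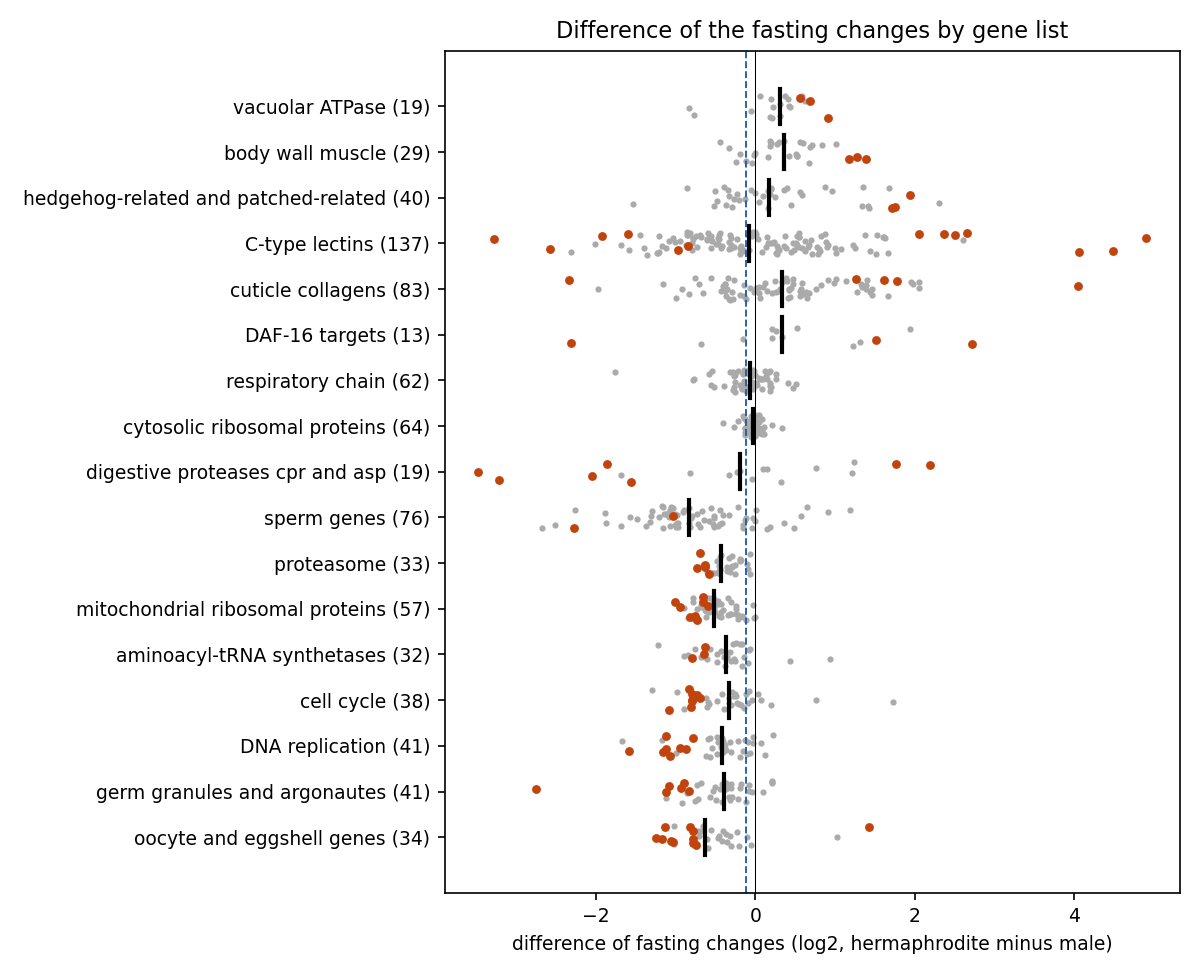
Difference of the fasting changes (horizontal axis, log2, hermaphrodite minus male) for every measured gene of 17 gene lists (rows, with the number of genes). Orange points were called, grey points were not, black bars are list medians and the dashed line is the median of all genes at -0.12. Oocyte and eggshell genes lie at a median of -0.63, and cytosolic ribosomal proteins gather at -0.02.

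Germ granule and Argonaute genes, which act in germline RNA silencing, had 6 negative differences among 41 (14.6%, against 4.18% of all genes). The count was 2 without fasted hermaphrodite replicate 3 or fed hermaphrodite replicate 1, and 3 without fed male replicate 2. wago-1, an Argonaute, fell in hermaphrodites and rose in males. It measured 10.87, 10.90 and 11.19 in fasted hermaphrodites against 11.42, 11.47 and 11.56 in fed ones, and 9.55, 9.51 and 9.70 in fasted males against 8.76, 8.93 and 9.18 in fed males. Neither pair of groups overlapped, and the difference was -1.13 ± 0.19 (limma adjusted p = 0.00759). pgl-3, a P granule protein, changed by -0.55 in hermaphrodites and by 0.54 in males (difference -1.09, limma adjusted p = 0.0106), and both changes were called. spe-44, a regulator of sperm development, did likewise, with -0.55 and 0.48 (difference -1.03, limma adjusted p = 0.0154), and kept its call without fed hermaphrodite replicate 1, the hermaphrodite array with the highest sperm signal.

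Opposite called changes were found at 32 probe sets, 21 that fell in hermaphrodites and rose in males and 11 the other way. Of the 32, 28 kept the call of a sex difference under all 23 alternatives, which does not require opposite called changes. The 21 and 11 became 8 and 25 after median centring, and 47 and 27 with the replicate block. They were 11 and 9 without fed hermaphrodite replicate 1. ugt-18, a UDP-glucuronosyltransferase, measured 6.88, 6.98 and 6.49 in fasted hermaphrodites against 7.76, 7.92 and 7.81 in fed ones, and 7.95, 7.66 and 8.19 in fasted males against 6.30, 6.71 and 7.01 in fed males. Fasting nearly exchanged the levels of the sexes, with a difference of -2.31 ± 0.32 (limma adjusted p = 0.00294). The Integrator subunit ints-2 fell by 0.64 in hermaphrodites and rose by 0.97 in males (difference -1.61, limma adjusted p = 0.00552). vps-33.2, a vesicle tethering factor, differed by -1.15 (limma adjusted p = 0.0185), was not called after quantile normalization or scaling to the hybridization controls, and gave -0.58 (0.629) at a second probe set. semo-1, a methanethiol oxidase homologue, rose by 0.65 in hermaphrodites and fell by 0.49 in males (difference 1.14, limma adjusted p = 0.017).

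Of 29 body wall muscle genes, 3 had a positive and none a negative difference, or 10.3% against 5.75% of all genes. The list's median was 0.36, and 5 had a positive difference with the replicate block. Fasting lowered 7 of them in hermaphrodites and 14 in males, against 6.02% and 8.75% of all genes. The myosin heavy chain myo-3 measured 7.81, 7.91 and 7.76 in fasted hermaphrodites against 7.56, 7.52 and 7.26 in fed ones, and 8.14, 7.82 and 8.12 in fasted males against 9.16, 8.90 and 9.04 in fed males. Its difference was 1.39 ± 0.22 (limma adjusted p = 0.00555), and the tropomyosin lev-11 differed by 1.18 (0.00541), both at probe sets that match several transcripts. lon-1, a secreted regulator of body size, measured 9.36, 9.44 and 9.90 in fasted hermaphrodites against 10.47, 10.32 and 10.70 in fed ones, and 7.17, 8.09 and 7.71 in fasted males against 10.87, 10.70 and 10.82 in fed males (difference 2.21 ± 0.30, limma adjusted p = 0.00298). The hedgehog-related grd-14 changed by -1.68 in hermaphrodites and by -3.43 in males (difference 1.75, limma adjusted p = 0.00678). It was 1 of 3 positive calls among 40 hedgehog- and patched-related genes, or 7.5% against 5.75% of all genes. The count was 1 without fasted hermaphrodite replicates 2 or 3, fed hermaphrodite replicate 2, fasted male replicates 2 or 3, or fed male replicate 1. With the replicate block 5 were positive and 1 was negative.

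The rest of the 12 largest differences in each direction had varied roles. thn-1, a thaumatin-like protein, measured 8.16, 8.07 and 9.36 in fasted hermaphrodites against 5.83, 5.95 and 5.80 in fed ones, and 7.94, 8.66 and 8.42 in fasted males against 8.33, 8.07 and 8.04 in fed males. It rose in hermaphrodites to the level males had in either state (difference 2.47 ± 0.43, limma adjusted p = 0.00888). clx-1 rose only in hermaphrodites, with means of 8.48 fasted and 6.07 fed, against 5.76 fasted and 6.60 fed in males (difference 3.25, limma adjusted p = 0.0198). mps-3, a potassium channel accessory subunit, fell in hermaphrodites, with means of 4.19 fasted and 6.28 fed, and was 9.59 in fasted and 9.29 in fed males (difference -2.39, limma adjusted p = 0.0149). Its fasted hermaphrodite mean lay under the testing level.

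Of the other 6, the claudin-like clc-11, the lectin clec-64 and the prolyl isomerase fkb-7 fell only in males. clc-11 differed by 5.29 (limma adjusted p = 0.0215) and missed the threshold without fasted hermaphrodite replicates 2 or 3, fed hermaphrodite replicate 1 or fed male replicate 2 (0.0504 to 0.0561). clec-64 differed by 4.07 (limma adjusted p = 0.025), with means of 2.38 in fasted and 2.31 in fed hermaphrodites, and 4.21 in fasted and 8.21 in fed males. Only its fed male mean lay above 6.01. It missed the threshold without fasted hermaphrodite replicate 3 or any 1 of the fed males (0.0513 to 0.0658). fkb-7 differed by 3.03 (limma adjusted p = 0.0198) and missed it without fasted hermaphrodite replicate 2 (0.0533). dscc-1, of a replication-linked clamp loader, rose in males (-2.93, limma adjusted p = 0.0388), tag-164 fell in hermaphrodites at levels under 6.01 (-2.58, 0.0374), and the collagen col-183 fell further in hermaphrodites (-2.35, 0.0375). dscc-1 kept its call only without fed male replicate 1 and tag-164 only without fed hermaphrodite replicate 2. col-183 kept it only without fasted hermaphrodite replicate 3, fed hermaphrodite replicate 2, fasted male replicate 3 or fed male replicate 3. Otherwise the adjusted p was 0.0507 to 0.0831 for dscc-1, 0.06 to 0.0774 for tag-164 and 0.0655 to 0.087 for col-183.

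Other large differences lay at probe sets outside the naming rule, singled out after their values were seen. asm-3, an acid sphingomyelinase, differed by 5.45 ± 1.13 (limma adjusted p = 0.0194), with means of 5.24 in fasted and 4.71 in fed hermaphrodites, and 3.61 in fasted and 8.54 in fed males. Only its fed male mean lay above 6.01, and its probe set matches several transcripts. The difference missed the threshold without fed male replicate 1 (limma adjusted p = 0.0515). B0024.4, which has no locus name, measured 5.66, 4.70 and 4.04 in fasted hermaphrodites against 9.62, 9.65 and 8.01 in fed ones, and 5.96, 7 and 7.35 in fasted males against 5.97, 7.12 and 6.83 in fed males. Only the hermaphrodite groups separated (difference -4.43 ± 0.76, limma adjusted p = 0.00888). F14H12.6 differed by 3.97 ± 0.55 (limma adjusted p = 0.00309) with means of 6.83 in fasted and 6.12 in fed hermaphrodites, and 5.99 in fasted and 9.25 in fed males, the highest group.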

How the data were processed

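Total RNA (250 ng per sample) from whole worms was labelled (16 h transcription) and hybridized to 12 Affymetrix arrays, 1 per sample, per the labels' protocols. The authors deposited 1 value table of log2 MAS5 signals, the tool being named in the submitters' processing notes; its version is not given in the sources used here. Each array's trimmed mean (2% off each end, after removing the log) was 500.1 to 500.2, a global scaling that sets a common mean per array. The number of arrays limits precision. 77 control probe sets were left out. Of the rest, 20766 have 1 gene, 887 several and 895 none in the platform annotation.

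Probe sets above log2 6.01, the 40th percentile of all values, on at least 3 of 12 arrays were tested (15913). limma 3.58.1 in R 4.3.3 was fitted to the deposited log2 values of the 4 groups without a block, with trended eBayes (12.2 residual and prior degrees of freedom), and the contrast was (fasted minus fed hermaphrodites) minus (fasted minus fed males). A call is a Benjamini-Hochberg adjusted p under 0.05 over all 15913. The same fit gave the fasting change in each sex. The procedure was tested on simulated data with independent noise on each array. Those data held no pairing of samples and no shift of single arrays, so that test does not speak to either. Errors are SE from the fit. The labels call the samples biological replicates of 3 independent experiments. Same-numbered samples deviated together within each sex (correlations of 0.129 to 0.259 in hermaphrodites and 0.119 to 0.274 in males), so the numbers were taken to pair them within a sex. Across the sexes the correlations were 0.0525 to 0.197 in fasted and 0.0802 to 0.204 in fed samples, not all above 0.1, so a block within each sex was run beside the block across both. The calls and errors printed still come from the fit without a block, which leaves the pairing out. With the block within each sex 1590 probe sets were called, and 823 of the 840 were among them. Its values for single genes and lists are not printed. The value with the block across both is printed where it changes a call or moves a count by over 1.5 times.

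For lists and names, a gene was represented by its brightest probe set with 1 gene (12212 genes). Named genes come from gene-specific probe sets with a locus name and a highest group mean above log2 7.73, the 60th percentile: the 12 largest called differences in each direction, up to 4 per class and per list with at least 3 called members, and 8 genes whatever their call. From these, genes that kept their call without each array were preferred in print after values were seen. cpr-5, clec-61, asm-3, B0024.4, F14H12.6, sip-1, lys-7, lys-4, mex-5, oma-1, perm-2, myo-3, lev-11, cpt-6, spe-44, dna-2, mcm-6, gst-24, ins-35, asp-13 and asp-14 lie outside the rule and were added with their values known. Among these, cpr-5, clec-61, asm-3, F14H12.6, lys-7, lys-4, oma-1, myo-3, lev-11, cpt-6, dna-2, asp-13 and asp-14 were measured by probe sets that match several transcripts. sip-1, mex-5 and perm-2 each had 1 such probe set and 1 gene-specific probe set. Members and the 47 lists were chosen with earlier results of these data known, so no list test was made. Alternatives were other scalings, pseudocounts, filters, variance models, array weights, replicate blocks and leaving out each array.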

Additional observations from a re-analysis of the deposited data

Results flagged for a closer look

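The fasting change differed between hermaphrodites and males, by a test of the difference itself (limma, adjusted p under 0.05), for 840 probe sets. Values below are the difference in log2 units, fasting change in hermaphrodites minus fasting change in males, and a gene appears once for each of its called probe sets listed.

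The largest positive differences named in the report were asm-3 (5.45), clc-11 (5.29), clec-61 (4.91), clec-183 (4.49), clec-64 (4.07), F14H12.6 (3.97), hsd-2 (3.75) and acs-2 (3.42). The acs-2 value is from its second probe set, and its brighter probe set missed the threshold. Positive differences of middling size were found for irg-5 (3.37), clx-1 (3.25), irg-4 (3.25), cpt-6 (3.25), fkb-7 (3.03), hsp-12.3 (2.72), thn-1 (2.47) and clec-60 (2.37). Next in size came lips-10 (2.32), lon-1 (2.21), asp-14 (2.19), lips-10 (2.16), adh-1 (2.13), clec-74 (2.06), lys-7 (1.86) and asp-13 (1.77). Smaller positive values belonged to grd-14 (1.75), perm-2 (1.68), sod-3 (1.51), perm-2 (1.43), gst-24 (1.40), myo-3 (1.39), lev-11 (1.18) and semo-1 (1.14). Smaller positive values belonged to  and lev-11 (0.95).

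The largest negative differences named in the report were B0024.4 (-4.43), cpr-4 (-3.48), cpr-5 (-3.22), lipl-1 (-3.07), ins-35 (-3.07), lips-11 (-2.99), cnc-6 (-2.95) and dscc-1 (-2.93). After these came tag-164 (-2.58), clec-54 (-2.57), sip-1 (-2.47), mps-3 (-2.39), col-183 (-2.35), lys-4 (-2.34), sip-1 (-2.31) and ugt-18 (-2.31). Values of medium size belonged to ins-7 (-2.28), spp-18 (-2.21), asp-1 (-2.05), cpr-9 (-1.86), ints-2 (-1.61), psf-2 (-1.59), cpr-1 (-1.56) and orc-5 (-1.43). Further negative differences were found for mex-5 (-1.41), mex-6 (-1.25), acs-1 (-1.24), oma-1 (-1.17), dut-1 (-1.15), vps-33.2 (-1.15), wago-1 (-1.13) and rfc-3 (-1.12). Next in order stood dna-2 (-1.12), pgl-3 (-1.09), orc-5 (-1.07), mex-5 (-1.06), acs-1 (-1.05), spe-44 (-1.03), mrpl-51 (-1.01) and mcm-6 (-0.87). Smaller negative values belonged to cpg-1 (-0.82), mex-6 (-0.80) and ndc-80 (-0.79).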

How the results depend on the processing

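All 840 differences, selected on the same arrays, kept their direction under each alternative that tested them, and the number called varied. It was 1641 with the replicate block (462 positive, 1179 negative), 1590 with the block within each sex (464 and 1126), 1522 with array weights (447 and 1075), 431 with hybridization controls (113 and 318) and 500 at 2-fold or more (310 negative). Median centring gave 358 positive and 231 negative, quantile normalization 365 and 363, the higher pseudocount 439 positive, and no variance trend 379 negative. Leaving out 1 array gave 428 to 899 calls, 127 to 289 positive and 282 to 610 negative, and 1353 to 1860 fasting calls in hermaphrodites and 3339 to 4383 in males. The block can only pair samples by number, and the cause of these shifts was not tested.

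With the replicate block, 108 probe sets fell in both sexes, 109 in hermaphrodites only and 211 in males only, 67 rose in both, 133 in hermaphrodites only and 882 in males only, 47 fell in hermaphrodites and rose in males, 27 did the reverse and 57 had neither change called. Median centring gave 203 falls and 145 rises in males only, 6 rises in both, and 8 and 25 opposite changes. The higher pseudocount gave 107 falls in both, 222 in males only, 29 rises in both, 110 in hermaphrodites only and 47 with neither called.

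Among genes without a called difference, signs turned for hsp-12.6 (-0.31 and -0.40 with the pseudocounts, -0.24 after quantile normalization, -0.67 to 1.14 leaving out 1 array), vit-2 (0.03 with array weights, 0.07 after median centring, 0.23 after quantile normalization, -0.31 to 0.32 leaving out 1 array) and lov-1, a male mating gene (-0.10 and -0.14 with the pseudocounts, -0.89 to 1.51 leaving out 1 array). The number of arrays and low signal near the testing level limit these values.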
